A study of Homo sapiens with 16 samples.

Results

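The interaction of sorafenib and methyl methanesulfonate (MMS) after 24 h was examined in the human line MDA-MB-231, derived from a breast cancer, as the departure of the joint response from the sum of the single responses. All 8 libraries taken at 24 h were used, of 16 in the series. Cells received 1 µM sorafenib for 12 h and then MMS for 24 h (called the combination here), MMS alone, sorafenib alone, or the solvent DMSO, with 2 libraries in each of the 4 groups. For MMS the series text gives 40 µg/mL, and the sample labels give 40 µM. RNA of the combination was taken 24 h after MMS was added, so that those cells had 36 h of sorafenib and cells on sorafenib alone had 24 h. A longer exposure and a joint action of the agents therefore cannot be told apart in these groups. The groups come from 2 independent experiments, and the library titles begin in 2 ways (MDA231 and MDAMB231), once in each group. The study's title asks about inflammation and angiogenesis.

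Sorafenib inhibits RAF kinases and receptor tyrosine kinases, among them those of the VEGF and PDGF families. RAF kinases feed the MEK and ERK kinases, and ERK raises the transcription of its own inhibitors, such as the DUSP phosphatases and the Sprouty proteins, whose transcripts are therefore read as ERK output. MMS methylates DNA bases and stalls replication, and cells answer with repair, checkpoint and stress programs.

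The 8 libraries held between 17256324 and 26381349 reads counted in genes, with a median of 20386876.5. Levels are given in CPM, the reads of a gene per 1000000 reads counted in genes, scaled for library composition, for the MDA231 library first and the MDAMB231 library second. Markers of this mesenchymal line were high in every library, with vimentin (VIM) at 1450 to 2470 CPM, whereas the oestrogen receptor gene ESR1 reached at most 0.228 CPM and was at 0 in 3 libraries. The summed level of 6 luminal markers was 25.5 to 31 CPM in combination cells, 23.3 to 23.5 CPM in MMS cells, 29.6 to 35.3 CPM in sorafenib cells and 21.9 to 22 CPM in DMSO cells, with EPCAM at 12 to 18.9 CPM, GATA3 at 6.8 to 10.8 CPM and CDH1 at 0.406 to 9.51 CPM over the 8 libraries. The T cell gene CD3E reached at most 0.058 CPM. The summed level of leukocyte markers was 1.29 to 1.45 CPM in combination cells, 1.39 to 2.06 CPM in MMS cells, 5.62 to 9.35 CPM in sorafenib cells and 6.33 to 14.9 CPM in DMSO cells, most of it CD14, and that of 7 fibroblast and endothelial markers 14.5 to 14.8, 10.1 to 12.9, 25.1 to 25.7 and 22.6 to 22.9 CPM in the same groups. Their part in the results below was not tested. The libraries of one title start deviated together: the deviations from group means correlated at 0.699 to 0.803 between groups, and the second principal component, with 20.5% of the variance, separated the title starts. The title start was a block by design, in every fit below unless stated.

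In bulk RNA, fewer cells of a kind and less RNA per cell cannot be told apart. For most genes the combination was close to the sum of the single log2 changes. Of 13744 genes tested, 16 had an interaction past an adjusted p of 0.05 (0.116%, edgeR quasi-likelihood test), 12 above the sum (0.0873%) and 4 below it (0.0291%). At an unadjusted p of 0.05 there were 1084 genes (7.89%), 527 above (3.83%) and 557 below (4.05%). Among the 11558 genes with a mean count of at least 50, the median size of the interaction was 0.106 on the log2 scale, less than the median SE of 0.127, and 3.03% lay beyond 0.5 in either direction. The same share was 2.66% for sorafenib added to MMS, 4.93% for sorafenib alone, 29.3% for MMS added to sorafenib and 25% for MMS alone.

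The 12 genes above the sum were CST1, DUSP6, LPXN, SERPINE2, SPRY4, ENPP1, TIMP3, MARCKSL1, SLC20A1, ADAM19, CDKN1A and ANTXR2, and the 4 below it were TGFB2, GPRC5A, TANC2 and LOC647979. Sorafenib alone lowered 11 of the 12 (background 4.19% of all genes), and sorafenib added to MMS lowered 7 of them (background 1.57%) and raised 1 (background 0.953%). The interaction and these single changes are made from the same libraries, so the counts describe the pattern and do not add to the evidence for it. In 11 of the 12 the sorafenib change was smaller in MMS-treated cells than in DMSO-treated cells, as it was in 7877 of all 13744 genes. Of the 4 genes below the sum, sorafenib alone raised 3 (background 4.2%) and sorafenib added to MMS raised 1 and lowered 2.

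The calls rest on the block. In the same fit without it, 0 genes passed (248 at an unadjusted p under 0.05), and the biological coefficient of variation was 0.137 without the block and 0.0571 with it. Leaving out one library at a time gave 8, 30, 6 and 2 calls without the MDA231 library of the combination, MMS, sorafenib and DMSO groups, and 4, 11, 54 and 24 calls without the MDAMB231 library of the same groups. Of the 16 genes, 5, 12, 4 and 2 passed without those MDA231 libraries and 3, 5, 13 and 10 without those MDAMB231 libraries. CST1 and DUSP6 passed in all 8 of these fits, and each of the other 14 genes failed in at least 3 of them. All 16 genes kept their sign in every fit.

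**Figure D1:**
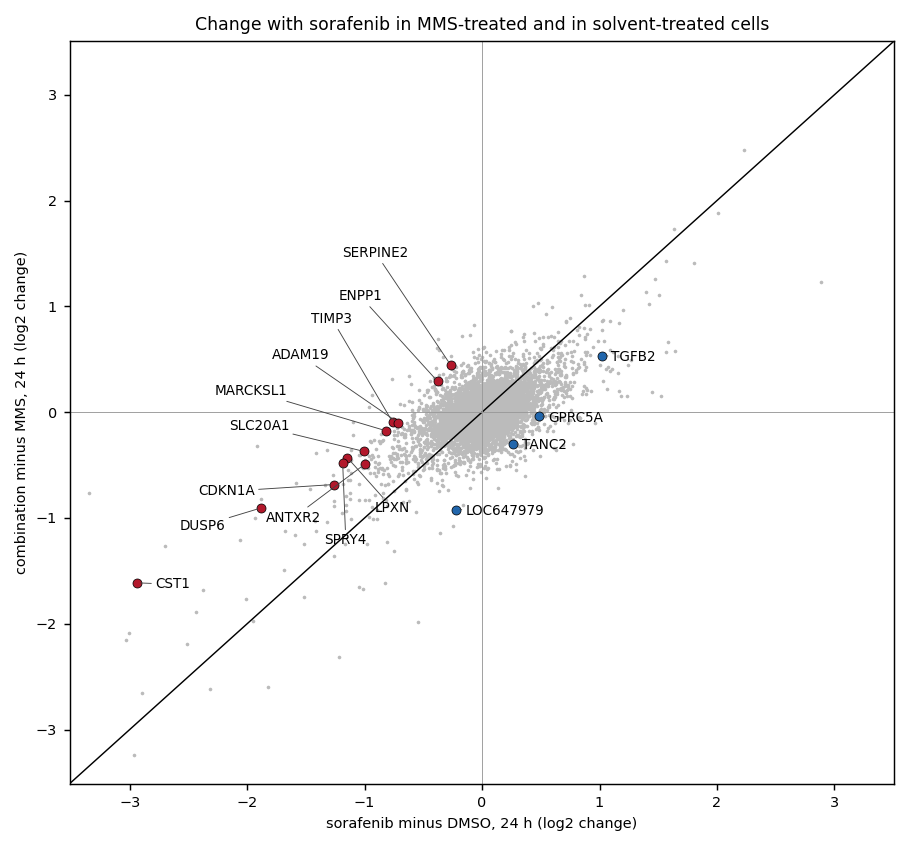
Log2 change with sorafenib in MMS-treated cells (vertical axis) against the log2 change with sorafenib in DMSO-treated cells (horizontal axis) at 24 h, for genes with a mean count of at least 50 (grey). Red points are the 12 genes with an interaction above the sum, blue points the 4 below it, and on the diagonal the interaction is 0; most red points lie left of 0 and nearer to 0 on the vertical axis, as DUSP6 does at -0.91 against -1.88.

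DUSP6 and SPRY4, both feedback inhibitors of ERK signalling, came out above the sum, and DUSP6 had the smallest adjusted p of all genes tested. DUSP6, a cytoplasmic phosphatase that inactivates ERK, had 107.5 and 106.9 CPM in combination cells, 215 and 187 CPM in MMS cells, 119.7 and 115 CPM in sorafenib cells and 431 and 434 CPM in DMSO cells. Both combination libraries lay close to the sorafenib libraries and well below the MMS libraries, and no group overlapped with another. The sum of the single changes gives 59.7 and 49.7 CPM, so the observed level was 1.8 and 2.15 times that sum, an interaction of 0.98 ± 0.0969 (SE, adjusted p = 0.000284). Sorafenib changed DUSP6 by -0.91 ± 0.0690 log2 in MMS-treated cells (adjusted p = 3.72e-07) and by -1.88 ± 0.0698 in DMSO-treated cells (adjusted p = 3.03e-11). The change with MMS was -0.13 ± 0.0696 in sorafenib-treated cells (adjusted p = 0.121) and -1.11 ± 0.0678 in DMSO-treated cells (adjusted p = 2.36e-09).

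SPRY4, a Sprouty protein that restrains signalling from receptors to ERK, had 49.3 and 58.1 CPM in combination cells, 77.3 and 72.4 CPM in MMS cells, 46.1 and 47.5 CPM in sorafenib cells and 109 and 104 CPM in DMSO cells. The sum of the single changes gives 32.6 and 33.2 CPM, below every library observed. The interaction was 0.71 ± 0.118 (adjusted p = 0.0291). Sorafenib changed SPRY4 by -0.48 ± 0.0833 in MMS-treated cells (adjusted p = 0.00289) and by -1.19 ± 0.0847 in DMSO-treated cells (adjusted p = 8.92e-08). Without the DMSO or the sorafenib library of MDA231, or the combination or the MMS library of MDAMB231, SPRY4 no longer passed, with an adjusted p of up to 0.181.

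Of 28 measured genes in a list of ERK output, these 2 passed above the sum and 0 below it. The shares over all genes were 0.0873% and 0.0291%. The median interaction of the list was 0.26, against -0.0012 over all genes tested, and 23 members were positive and 5 negative. At an unadjusted p of 0.05, 14 members lay above the sum and 0 below it, beside 3.83% and 4.05% of all genes. Sorafenib alone lowered 25 of the 28 and raised 0, beside 4.19% and 4.2% of all genes, and sorafenib added to MMS lowered 12 and raised 0, beside 1.57% and 0.953%. The median change with sorafenib was -0.37 in MMS-treated cells and -0.67 in DMSO-treated cells. The list was chosen with earlier results of these data known. Its interactions and sorafenib changes are made from the same libraries, so these counts describe the pattern and do not add to the evidence for it. ETV4, an ETS transcription factor induced by ERK, missed the threshold at 0.64 ± 0.125 (adjusted p = 0.0574), with 46.7 and 58.0 CPM in combination cells, 63.7 and 74.8 in MMS cells, 36.04 and 54.0 in sorafenib cells and 85.5 and 98.2 in DMSO cells. LIF, an IL6-family cytokine, stood at 0.48 ± 0.107 (adjusted p = 0.133). EGR1, an immediate early transcription factor, had the largest value of the list, 1.60 ± 0.427, without passing (adjusted p = 0.241), and its combination libraries had 19.0 and 52.5 CPM. ETV4, LIF and EGR1, and DUSP4, IER3 and SPRY2 in the next paragraph, are outside the naming rule and were picked after their values were seen.

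Some genes induced by ERK stood near the sum. DUSP4, IER3 and SPRY2 had slightly negative values, whereas 23 of the 28 genes in the list were positive. DUSP4, a nuclear relative of DUSP6, had 237 and 224 CPM in combination cells, 458.0 and 458.4 CPM in MMS cells, 470.4 and 467 CPM in sorafenib cells and 900.5 and 929.9 CPM in DMSO cells. Each agent alone took DUSP4 to near the same level, and on the log2 scale both together took it lower again by about as much. In CPM the added drop was smaller than the drop with either agent alone, as it was for DUSP6. The contrast between DUSP4 and DUSP6 is therefore stated on the log2 scale only. Its interaction was -0.02 with a 95% interval of -0.21 to 0.17, against 0.77 to 1.18 for DUSP6; the difference between the genes was not tested. IER3, an early response gene also induced by ERK, stood at -0.03 with an interval of -0.26 to 0.21, and SPRY2, a relative of SPRY4, at -0.10 with an interval of -0.32 to 0.12. CCND1, the G1 cyclin driven by ERK, had an interaction of 0.15 ± 0.104 (adjusted p = 0.80, interval -0.07 to 0.37).

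The promoters of DUSP6 and SPRY4 are shown because both genes moved the same way, and that of LOC647979 because it moved the other way. Each is 300 bases from RefSeq (GRCh38.p14), 250 before the annotated start and 50 after it, read in the direction of the gene. LOC647979 is matched by its RefSeq gene identifier to NORAD. Capitals mark matches, on either strand, to an NF-kB motif (GGGA and CC with 4 bases between) in DUSP6, to an antioxidant response element core (TGACNNNGC) in SPRY4 and LOC647979, and to an ETS motif (CCGGAAG) in LOC647979. DUSP6 is at chr12:89352452-89352751, SPRY4 at chr5:142324198-142324497 and NORAD at chr20:36050911-36051210, all on the minus strand.
DUSP6: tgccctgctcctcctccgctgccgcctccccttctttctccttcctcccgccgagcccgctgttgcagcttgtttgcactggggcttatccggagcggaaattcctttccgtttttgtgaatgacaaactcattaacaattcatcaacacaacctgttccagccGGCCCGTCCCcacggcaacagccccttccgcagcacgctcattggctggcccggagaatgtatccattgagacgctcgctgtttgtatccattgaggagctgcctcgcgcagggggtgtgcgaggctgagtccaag
SPRY4: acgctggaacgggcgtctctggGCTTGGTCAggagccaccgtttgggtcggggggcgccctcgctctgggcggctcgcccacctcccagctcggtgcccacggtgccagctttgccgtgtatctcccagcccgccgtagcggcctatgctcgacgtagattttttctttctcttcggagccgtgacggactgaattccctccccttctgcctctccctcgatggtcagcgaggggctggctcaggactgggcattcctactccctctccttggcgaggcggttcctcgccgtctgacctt
LOC647979 (NORAD): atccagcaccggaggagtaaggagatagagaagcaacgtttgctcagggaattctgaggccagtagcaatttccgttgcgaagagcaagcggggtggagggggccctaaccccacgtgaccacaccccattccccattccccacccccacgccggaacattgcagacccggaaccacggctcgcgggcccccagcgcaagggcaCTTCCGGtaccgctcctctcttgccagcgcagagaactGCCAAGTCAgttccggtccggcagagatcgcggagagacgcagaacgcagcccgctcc
These matches are descriptions of letters in the window. The NF-kB motif was in 25.1% of 27305 such promoters, the antioxidant core in 13.6% and the ETS motif in 10.7%. Of the 16 genes, 14 had a promoter in the table, and for each gene the first one listed was counted. The NF-kB motif was in 4 of the 14 (DUSP6, SLC20A1, ADAM19 and CDKN1A), the antioxidant core in 4 (SERPINE2, SPRY4, SLC20A1 and LOC647979) and the ETS motif in 1. AP-1 (TGANTCA) was in 1, LPXN, against 7.76% of all promoters, and the hypoxia core (ACGTGC) in 1, TGFB2, against 6.87%. CEBP-ATF (TGATGNAA), the cell cycle homology region (TTTGAA), E2F (TTCCCGC), the heat shock core (GAA, TTC and GAA with 2 bases between each) and the serum response core (CCATATT and GG with 1 base between) were in 0. The second promoter listed for LPXN, which was not counted, held TTTGAA. In the 200 bases before the start alone, the antioxidant core was in 2 of the 14 (SERPINE2 and SLC20A1) and the NF-kB motif in 3.

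Matrix proteases and their inhibitors gave 3 genes above the sum and 0 below it, of 31 measured. Over all genes the shares were 0.0873% and 0.0291%. This list, too, was chosen with earlier results of these data known, so the counts describe the pattern and do not add to the evidence for it. The list had 18 positive and 13 negative members, with a median of 0.04. SERPINE2, the secreted inhibitor protease nexin-1, had 76.7 and 109.8 CPM in combination cells, 57.8 and 78.6 CPM in MMS cells, 35.5 and 43.5 CPM in sorafenib cells and 44.2 and 50.5 CPM in DMSO cells. Within each title start the combination library was the highest of the 4 and the sorafenib library the lowest. Its interaction was 0.71 ± 0.121 (adjusted p = 0.0291). Sorafenib raised SERPINE2 by 0.44 ± 0.0818 in MMS-treated cells (adjusted p = 0.00477), and in DMSO-treated cells its change was -0.27 ± 0.0889 (adjusted p = 0.08). SERPINE2 was the only gene of the 12 that sorafenib raised past the threshold in MMS-treated cells. ENPP1 rose there as well without passing (0.29 ± 0.0803, edgeR adjusted p = 0.0738).

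TIMP3, a metalloprotease inhibitor bound to the matrix, had 184.7 and 148.0 CPM in combination cells, 188.0 and 167 CPM in MMS cells, 397 and 430.0 CPM in sorafenib cells and 739.7 and 667 CPM in DMSO cells. The combination and MMS libraries overlapped, whereas sorafenib libraries lay below DMSO libraries. Its interaction was 0.67 ± 0.117 (adjusted p = 0.0344). The change with sorafenib was -0.09 ± 0.0838 in MMS-treated cells (adjusted p = 0.714) and -0.76 ± 0.0819 in DMSO-treated cells (adjusted p = 1.02e-05). ADAM19, a membrane-bound metalloprotease, had 45.2 and 66.9 CPM in combination cells, 48.1 and 72.3 CPM in MMS cells, 36.9 and 60.3 CPM in sorafenib cells and 58.1 and 102.5 CPM in DMSO cells. The interaction of ADAM19 was 0.62 ± 0.114 (adjusted p = 0.0482). SERPINE2 passed in 4 of the 8 fits that left out a library, TIMP3 in 2 and ADAM19 in 2.

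CST1, the secreted cysteine protease inhibitor cystatin SN, had the largest interaction of all 16 genes, 1.33 ± 0.157 (adjusted p = 0.00159). Its level was 2.76 and 7.71 CPM in combination cells, 7.54 and 25.01 CPM in MMS cells, 6.87 and 22.2 CPM in sorafenib cells and 51.8 and 172.9 CPM in DMSO cells. In each title start the combination was the lowest of the 4 and DMSO the highest, with MMS and sorafenib close together, and MDAMB231 libraries were above MDA231 libraries in every group. The sum of the single changes gives 1.00 and 3.21 CPM. Sorafenib changed CST1 by -1.61 ± 0.120 in MMS-treated cells (adjusted p = 3.42e-07) and by -2.94 ± 0.0959 in DMSO-treated cells (adjusted p = 1.04e-11). CST1 is a close paralog of CST2 and CST4, which were likewise lowest in the combination and highest in DMSO cells, with CST4 at 0.969 and 2.37 CPM in combination cells, 2.26 and 8.69 in MMS cells, 3.72 and 10.9 in sorafenib cells and 19.5 and 55.8 in DMSO cells. Reads with several alignments were set aside and not counted for any gene, so reads that fit these genes equally may be missing from CST1. Whether a counted read was placed in the wrong paralog cannot be told from the counts.

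CDKN1A, the cyclin-dependent kinase inhibitor p21, had 65.5 and 139 CPM in combination cells, 117 and 203 CPM in MMS cells, 37.6 and 70.4 CPM in sorafenib cells and 88.9 and 171 CPM in DMSO cells. In each title start its order was MMS, DMSO, combination and sorafenib, from high to low. Its interaction was 0.58 ± 0.107 (adjusted p = 0.0482). Sorafenib changed it by -0.68 ± 0.0737 in MMS-treated cells (adjusted p = 2.87e-05) and by -1.26 ± 0.0780 in DMSO-treated cells (adjusted p = 1.87e-08), while MMS raised it by 0.90 ± 0.0774 in sorafenib-treated cells (adjusted p = 8.16e-08) and by 0.32 ± 0.0739 in DMSO-treated cells (adjusted p = 0.00176). CDKN1A was the only one of 29 measured p53 targets to pass, beside 0.116% of all genes, and the list median was -0.04. It passed in 1 of the 8 fits that left out a library, and on the linear CPM scale its departure was -0.646 CPM in MDA231 and 37.5 CPM in MDAMB231.

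LPXN, SLC20A1 and ANTXR2 were also above the sum. LPXN (leupaxin), an adaptor of focal adhesions, had 63.9 and 44.2 CPM in combination cells, 88.1 and 58.4 CPM in MMS cells, 50.8 and 40.8 CPM in sorafenib cells and 115.6 and 87.4 CPM in DMSO cells (interaction 0.72 ± 0.113, adjusted p = 0.0243). SLC20A1, a sodium-dependent phosphate transporter, had 156 and 162 CPM in combination cells, 198.0 and 214 CPM in MMS cells, 223 and 257 CPM in sorafenib cells and 476 and 484.5 CPM in DMSO cells (0.63 ± 0.0935, adjusted p = 0.014). ANTXR2, a collagen-binding receptor also used by anthrax toxin, had 161 and 187 CPM in combination cells, 233 and 255 CPM in MMS cells, 196 and 206 CPM in sorafenib cells and 397 and 403 CPM in DMSO cells (0.51 ± 0.0934, adjusted p = 0.0482). In these 3 genes both agents alone lowered the level, and DMSO libraries were the highest within each title start.

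ENPP1, an ectoenzyme that makes pyrophosphate from ATP, lay lower in both groups with MMS than in both groups without it. It had 38.3 and 30.9 CPM in combination cells, 31.6 and 25.01 CPM in MMS cells, 74.5 and 61.4 CPM in sorafenib cells and 99.9 and 77.3 CPM in DMSO cells. Its interaction was 0.67 ± 0.109 (adjusted p = 0.0288), and the change with sorafenib was 0.29 ± 0.0803 in MMS-treated cells (adjusted p = 0.0738) and -0.38 ± 0.0734 in DMSO-treated cells (adjusted p = 0.00282). MARCKSL1, an actin-binding protein of the MARCKS family, had 69.0 and 81.6 CPM in combination cells, 84.6 and 85.4 CPM in MMS cells, 65.6 and 68.9 CPM in sorafenib cells and 120.7 and 116 CPM in DMSO cells. Its interaction was 0.64 ± 0.109 (adjusted p = 0.0291), and DMSO libraries stood above the other 6.

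**Figure D2:**
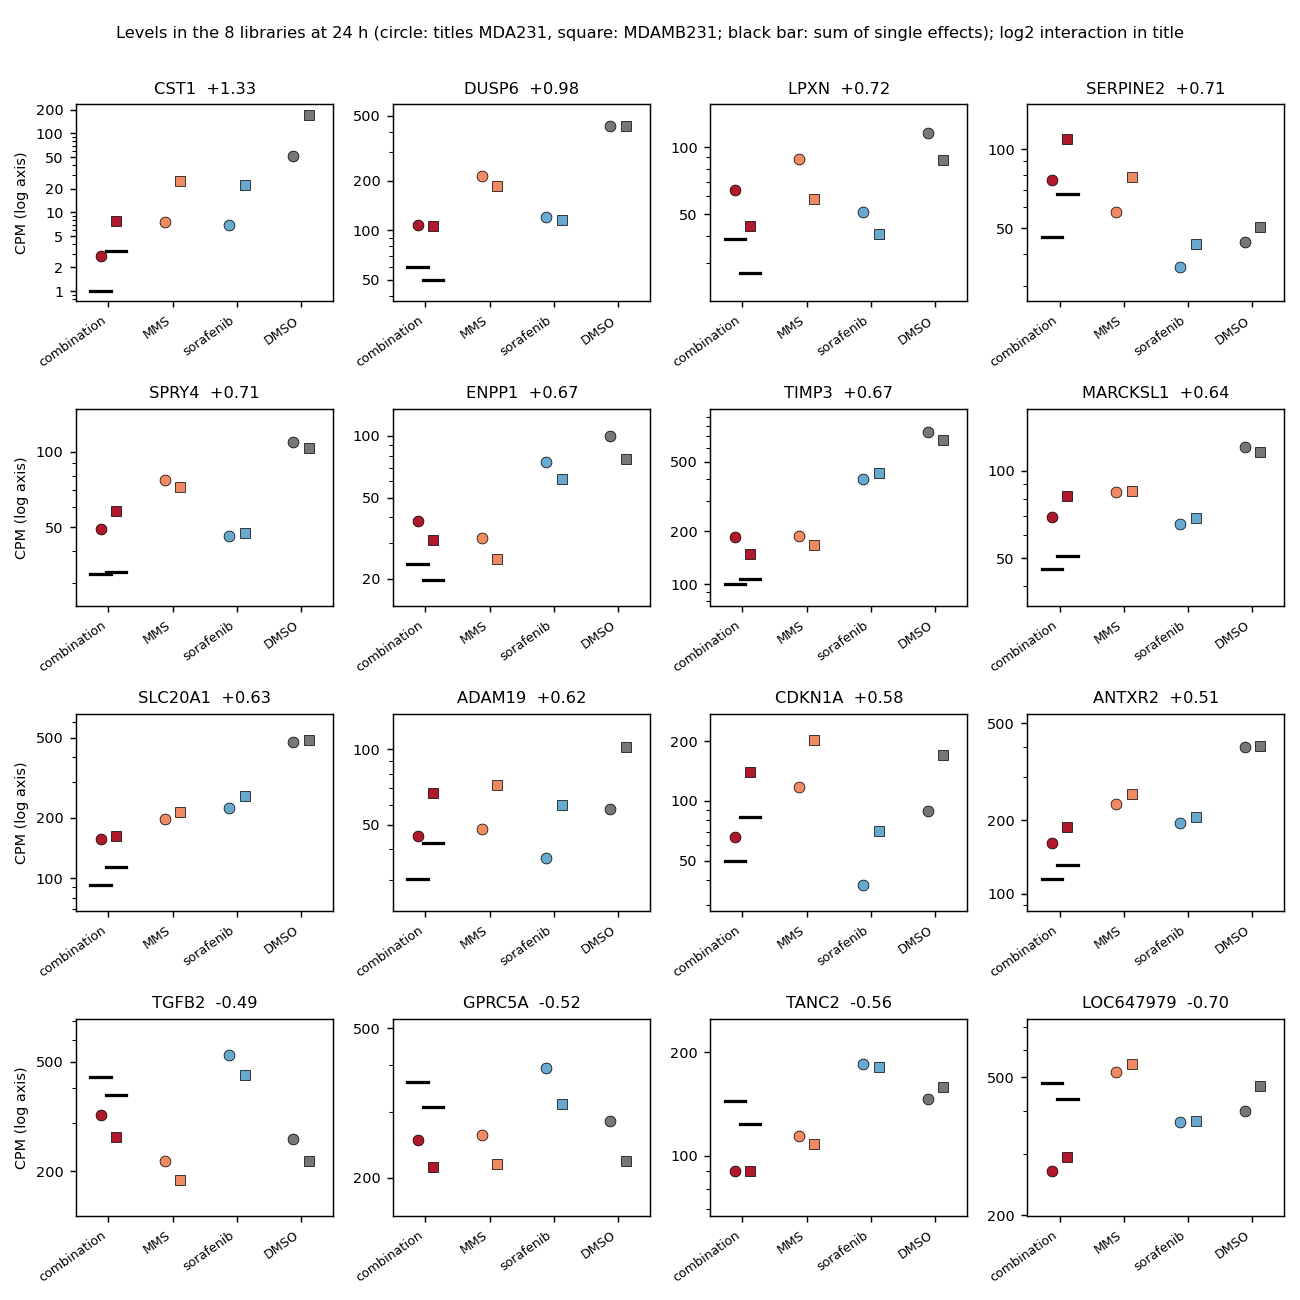
Level in CPM (log axis) of the 16 genes past the threshold in the 8 libraries at 24 h, by group, with circles for MDA231 and squares for MDAMB231 libraries and the log2 interaction above each panel. Black bars mark the level that the sum of the single log2 changes gives for the combination in each title start; the combination lies above the bar in the first 12 panels, as for DUSP6 at 107.5 and 106.9 CPM over bars at 59.7 and 49.7 CPM, and below it in the last 4.

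Among the 4 genes below the sum, TGFB2, a secreted TGF-beta ligand, was raised by sorafenib, and less so with MMS. It had 319 and 265 CPM in combination cells, 218 and 185 CPM in MMS cells, 529 and 445 CPM in sorafenib cells and 261 and 218 CPM in DMSO cells. The sum of the single changes gives 440.5 and 379 CPM, above both combination libraries, and the interaction was -0.49 ± 0.0867 (adjusted p = 0.0344). Sorafenib raised TGFB2 by 0.53 ± 0.0615 in MMS-treated cells (adjusted p = 5.62e-05) and by 1.02 ± 0.0617 in DMSO-treated cells (adjusted p = 1.38e-08). TGFB2 was the only gene to pass of 30 measured in a list of TGF-beta and mesenchymal genes (median -0.08). It was also the only one of 19 measured YAP targets to pass (median -0.17), beside 0.116% of all genes. Of those 19, 15 were negative and 4 positive. At an edgeR unadjusted p of 0.05, 8 lay below the sum and 2 above it, beside 4.05% and 3.83% of all genes. TGFBR2, a receptor for this ligand, had an interaction of the other sign that missed the threshold, 0.44 ± 0.0886 (adjusted p = 0.0665), and it too was picked after its value was seen.

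LOC647979 (NORAD), a long non-coding RNA that binds PUMILIO proteins and is induced by DNA damage, had 268 and 293 CPM in combination cells, 517 and 546 CPM in MMS cells, 372 and 374 CPM in sorafenib cells and 399 and 473 CPM in DMSO cells. The combination libraries were the lowest and the MMS libraries the highest, with no overlap between any of the 4 groups. The interaction was -0.70 ± 0.0963 (adjusted p = 0.00758), against a sum of single changes of 482 and 432 CPM. MMS changed it in opposite directions, by -0.41 ± 0.0683 in sorafenib-treated cells (adjusted p = 7.86e-05) and by 0.29 ± 0.0679 in DMSO-treated cells (adjusted p = 0.00209). Sorafenib changed it by -0.92 ± 0.0684 in MMS-treated cells (adjusted p = 3.42e-07), and its change in DMSO-treated cells was -0.22 ± 0.0682 (adjusted p = 0.0582). LOC647979 passed in 5 of the 8 fits that left out a library and failed without either combination library or the DMSO library of MDA231, with an adjusted p of up to 0.0959.

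GPRC5A, an orphan receptor induced by retinoic acid, had 252 and 214 CPM in combination cells, 260.3 and 218 CPM in MMS cells, 392 and 314.5 CPM in sorafenib cells and 283.5 and 222 CPM in DMSO cells. Its sorafenib libraries stood above the other groups of the same title start, and the combination stayed near MMS and DMSO (interaction -0.52 ± 0.0894, adjusted p = 0.0291). TANC2, a scaffold protein of synapses, had 90.2 and 90.2 CPM in combination cells, 114.0 and 108 CPM in MMS cells, 185.0 and 180.7 CPM in sorafenib cells and 147 and 158.0 CPM in DMSO cells. The change of TANC2 with sorafenib had opposite signs, -0.30 ± 0.0680 in MMS-treated cells (adjusted p = 0.0235) and 0.26 ± 0.0666 in DMSO-treated cells (adjusted p = 0.0183), with an interaction of -0.56 ± 0.0952 (adjusted p = 0.0291). SLC29A3, a nucleoside transporter of lysosomes, had the next smallest p below the sum and did not pass (-1.03 ± 0.198, adjusted p = 0.0574). It had 6.48 and 10.1 CPM in combination cells, 5.97 and 8.94 CPM in MMS cells, 12.9 and 17.9 CPM in sorafenib cells and 5.48 and 8.18 CPM in DMSO cells, so that its level was highest in sorafenib cells and near DMSO in the other 2 groups.

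IL8, IL6, VEGFA and PTGS2, the genes of inflammation and angiogenesis followed by name, did not pass at 24 h. IL8, a neutrophil chemokine that also acts on vessels, had 259 and 194 CPM in combination cells, 461 and 399 CPM in MMS cells, 733 and 435 CPM in sorafenib cells and 980.2 and 715.5 CPM in DMSO cells. The combination libraries were the lowest in each title start, and the sum of the single changes gives 345 and 243 CPM. The interaction of IL8 was -0.38 ± 0.130 (adjusted p = 0.416), with a 95% interval of -0.66 to -0.11. On the linear CPM scale it had the other sign, 44.95 CPM in MDA231 and 75.7 CPM in MDAMB231 above the sum of the differences.

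IL6, a cytokine of the acute phase, had 46.8 and 34.9 CPM in combination cells, 53.5 and 63.9 CPM in MMS cells, 126 and 92.9 CPM in sorafenib cells and 100 and 99.6 CPM in DMSO cells. Its combination libraries were below all others, and its interaction was -0.67 ± 0.173 (adjusted p = 0.221, interval -1.04 to -0.30). VEGFA, the main growth factor of blood vessels, had 63.5 and 71.7 CPM in combination cells, 93.7 and 143 CPM in MMS cells, 147 and 158 CPM in sorafenib cells and 325 and 355 CPM in DMSO cells. It was lowest in the combination and highest in DMSO cells, with an interaction of 0.36 ± 0.136 (adjusted p = 0.482, interval 0.07 to 0.65). PTGS2 (COX-2), which makes prostaglandin precursors, had an interaction of 0.43 ± 0.284 (adjusted p = 0.782, interval -0.17 to 1.03), with 12.0 and 9.86 CPM in combination cells, 22.7 and 24.5 CPM in MMS cells, 23.0 and 10.8 CPM in sorafenib cells and 68.3 and 34.8 CPM in DMSO cells. Before adjustment the intervals of IL8, IL6 and VEGFA did not include 0, and that of PTGS2 did. VEGFA passed without the MMS library of MDAMB231 (0.62, adjusted p = 0.0317), IL8 and IL6 without the sorafenib library of MDAMB231 (adjusted p = 0.0298 and 0.00753), and IL6 also without the MMS library of MDA231 (adjusted p = 0.0332). With no filter on low counts IL8 and IL6 passed as well (adjusted p = 0.012 and 3.51e-05). Over the 8 fits that left out a library the interaction ran from -0.57 to -0.17 for IL8, from -0.90 to -0.37 for IL6, from 0.15 to 0.62 for VEGFA and from 0.02 to 0.93 for PTGS2, the lowest VEGFA and PTGS2 values being those without the MMS library of MDA231 and the IL8 value nearest to 0 that without the sorafenib library of MDA231.

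As groups, 0 of 28 measured cytokines and chemokines and 0 of 34 measured angiogenic factors and receptors passed in either direction. Over all genes tested 0.116% passed, so counts of 0 in lists of this size are near that share. The median interaction was -0.27 for the cytokines, with 18 negative and 10 positive, and 0.02 for the angiogenic list, with 16 negative and 18 positive. Sorafenib lowered 12 and raised 1 of the cytokines in MMS-treated cells, beside 1.57% and 0.953% of all genes, and it lowered 11 and raised 4 in DMSO-treated cells, beside 4.19% and 4.2%. CSF3, the granulocyte growth factor, came nearest to the threshold (0.88 ± 0.170, adjusted p = 0.0574). It had 14.4 and 11.2 CPM in combination cells, 54.7 and 58.9 CPM in MMS cells, 11.2 and 8.72 CPM in sorafenib cells and 79.3 and 83.9 CPM in DMSO cells, so that the combination stayed slightly above sorafenib alone. CSF3 is outside the naming rule and was picked after its values were seen. Of the 35 lists, 29 had 0 genes past the threshold, and their medians ran from -0.27 to 0.17. In the list of D cyclins and G1 regulators CDKN1A passed, 1 of 23 measured, with a list median of -0.04.

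**Figure D3:**
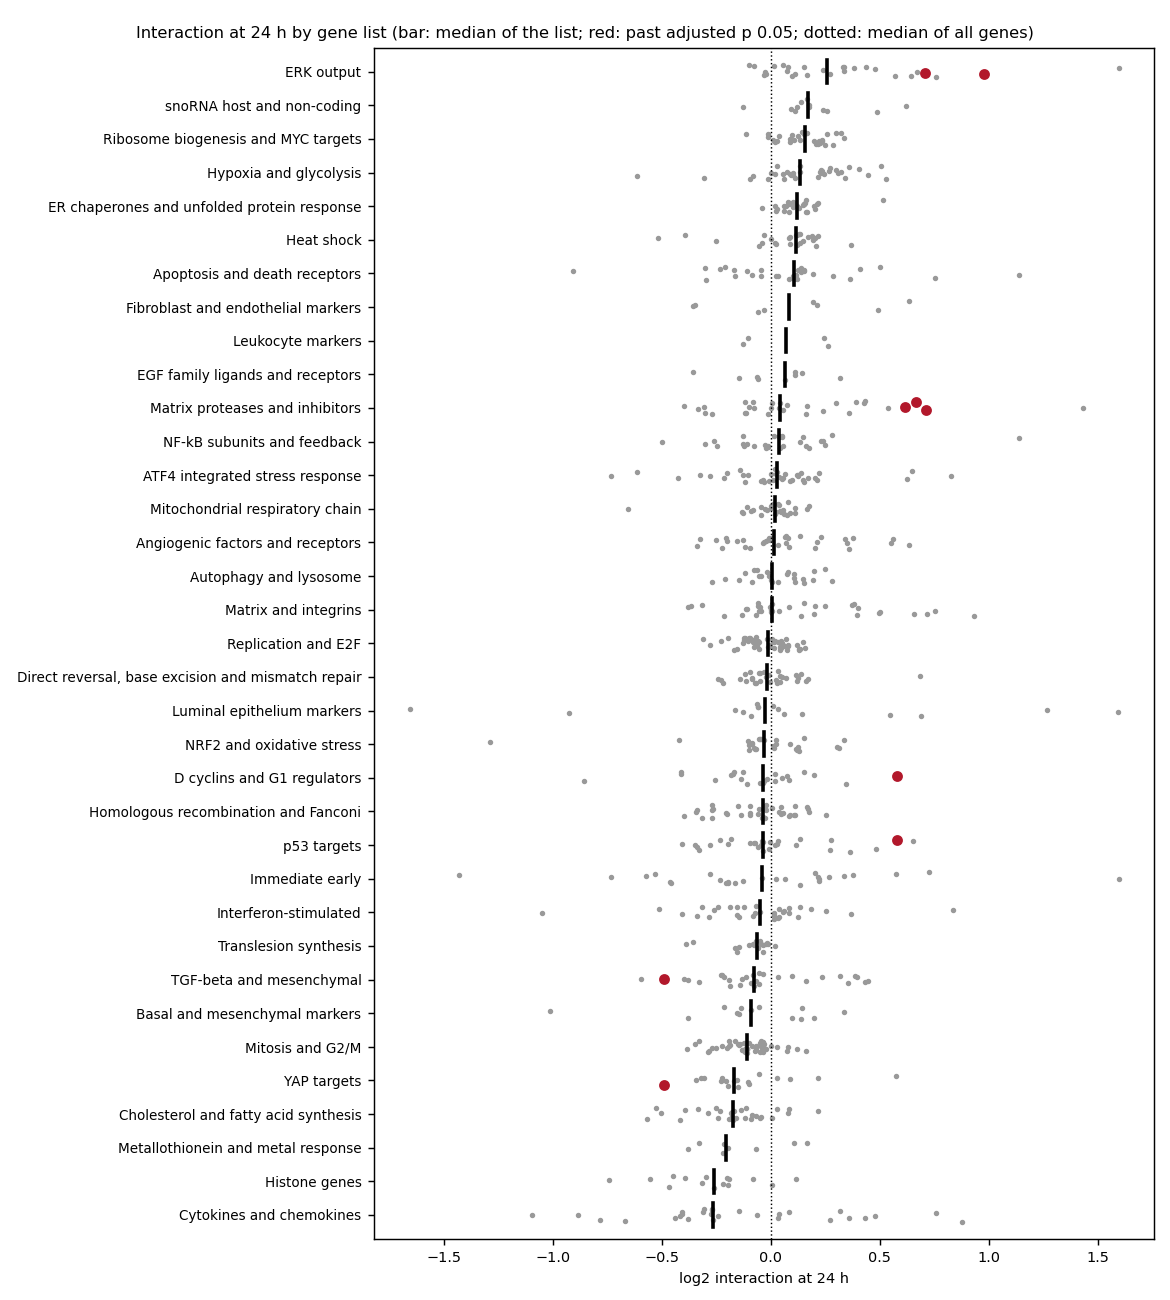
Log2 interaction at 24 h (horizontal axis) of each measured gene in 35 gene lists, ordered by list median (black bars), with genes past the threshold in red and the median of all genes dotted. ERK output has the highest median, 0.26, and cytokines and chemokines the lowest, -0.27; red points are in 6 lists, and CDKN1A and TGFB2 are each in 2 of them.

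The departure from the sum at 8 h, in the other 8 libraries, was set beside these values in a fit of all 16 libraries. Combination cells at 8 h had 20 h of sorafenib and cells on sorafenib alone had 8 h, so that the exposures differ from those at 24 h. At 8 h, 7 of 13948 genes passed (0.0502%), 1 above the sum (0.00717%), VEGFA (1.01 ± 0.146, adjusted p = 0.0107), and 6 below it (0.043%), ADAMTS1, AKAP12, DUSP1, INHBA, KLF6 and TFPI2, none of them among the 16. In that fit 4 genes passed at 24 h (0.0287%), CST1, DUSP6, LPXN and LOC647979. The 24 h interaction minus the 8 h interaction was past the threshold for 0 genes in edgeR (647 at an unadjusted p under 0.05) and 4 in DESeq2, so no gene is called particular to 24 h here. Of the 16 genes, 13 had the same sign at 8 h, and 15 had a smaller interaction there. The share of all genes with the same sign was not computed. The 16 were chosen by their 24 h values, so a smaller size at 8 h is no evidence of a change with time. The 8 h counts rest on single libraries: without the 8 h combination library of MDAMB231 there were 794 calls at 8 h and 61 for the difference, and without the 8 h DMSO library of MDA231 there were 0 at 8 h.

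DUSP6 stood at 0.56 ± 0.102 at 8 h (adjusted p = 0.0516) and 0.98 ± 0.102 at 24 h (adjusted p = 0.000161), with a difference of 0.42 ± 0.144 (adjusted p = 0.989). GPRC5A stood at -0.70 ± 0.128 at 8 h (adjusted p = 0.0516) and -0.51 ± 0.127 at 24 h (adjusted p = 0.277). SERPINE2 stood at -0.10 ± 0.138 at 8 h and 0.72 ± 0.139 at 24 h, the largest difference per SE of the 16 genes (0.82 ± 0.196, adjusted p = 0.556). ENPP1 and ANTXR2 were both at -0.01 at 8 h. VEGFA stood at 1.01 at 8 h and 0.37 at 24 h, a difference of -0.64 ± 0.207 (adjusted p = 0.953). KLF6, a transcription factor of the early response, stood at -0.88 ± 0.108 at 8 h (adjusted p = 0.0024).

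**Figure D4:**
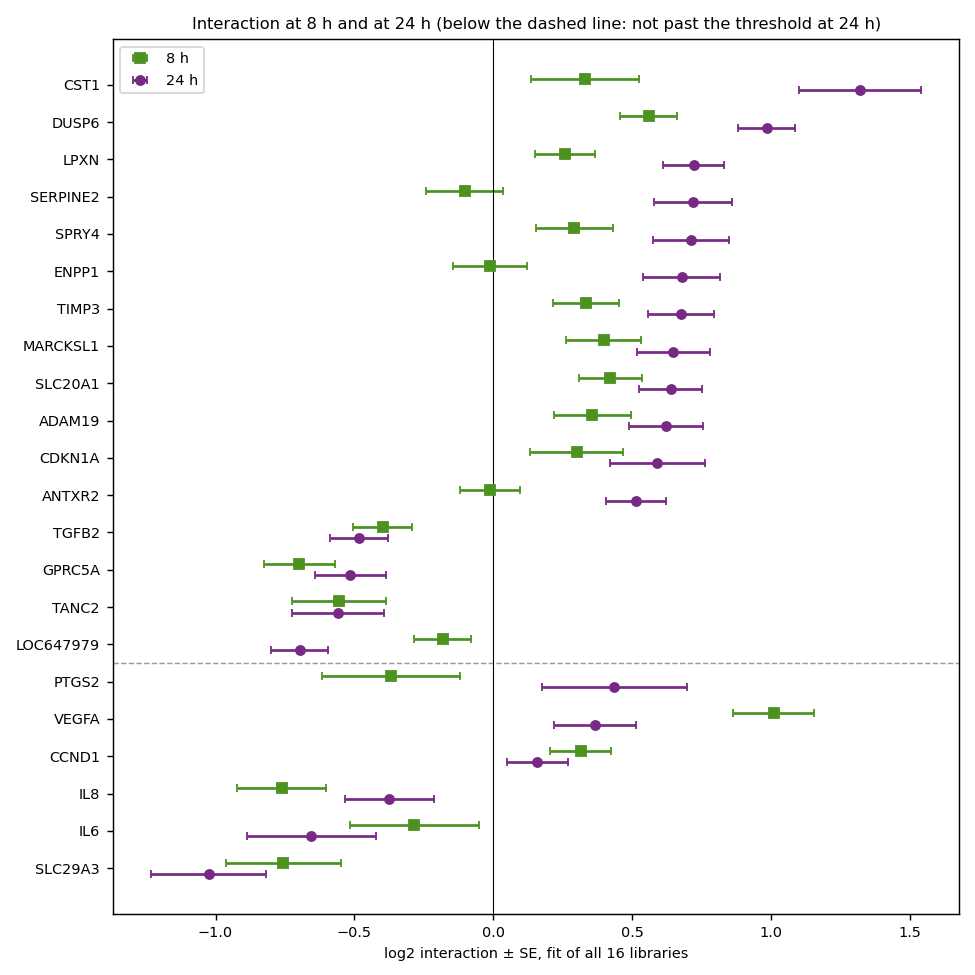
Log2 interaction ± SE (horizontal axis) of the 22 named genes at 8 h (green squares) and 24 h (purple circles), from a joint fit of all 16 libraries. Genes above the dashed line passed the threshold at 24 h in the fit of the 8 libraries. In the fit shown, 4 of them passed at 24 h, CST1, DUSP6, LPXN and LOC647979. DUSP6 is positive at both times, at 0.56 and 0.98, whereas SERPINE2 is at -0.10 at 8 h and 0.72 at 24 h.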

How the data were processed

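RNA-seq libraries were made from total RNA with TruSeq kits, per the labels' protocols. The deposited values are raw read counts per gene, and the submitters' processing notes name CASAVA 1.8.2, TopHat2 2.0.8b, HTSeq and the build hg19. The annotation, strand setting and HTSeq version are not given in the sources used here. Whether reads of the opposite strand were counted for a gene is therefore not known. Reads that fell on several genes were set aside as ambiguous, so overlapping genes may lose reads. Reads of paralogous genes that aligned to several places were set aside in a counter row, so such genes may lose reads. The 5 counter rows were left out, and held 7.05 to 7.69% (no gene), 1.03 to 1.18% (ambiguous) and 29.5 to 30.8% (several alignments) of all counts of a library.

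For the 23228 gene rows, edgeR 4.0.16 (R 4.3.3) was run on the counts with TMM factors, filterByExpr (13744 genes kept), 1 mean per group, the title start as block (3 residual degrees of freedom), quasi-likelihood tests and a threshold of 0.05 on p adjusted by Benjamini-Hochberg. The interaction is (combination minus MMS) minus (sorafenib minus DMSO) in log2, and CPM are per 1000000 gene counts, scaled by TMM. The 8 h contrast and the difference between times came from all 16 libraries (13948 genes, 7 residual degrees of freedom). The title starts may mark the 2 independent experiments that the series text names; the labels do not say so. Their pairing was checked by correlating deviations from group means (6 pairs of groups, 0.699 to 0.803). The p-values measure only the spread between these libraries.

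Called genes whose mean count was 50 or more and that had one sign in both title starts were named, up to 12 per direction, together with up to 3 called members per gene list, IL8, IL6, VEGFA, PTGS2, DUSP6 and CCND1, and the 5 smallest p in a direction with fewer than 5 calls. Members, the 35 gene lists and motifs were chosen with earlier results of these data known. On simulated interactions in 13633 genes, the test recovered 55.2% of 1.5-fold, 92.5% of 2-fold and 100% of 4-fold changes, with 8 false of 173 calls. The changes were set in 67, 67 and 66 genes with a mean count of at least 50. With 173 calls, against 16 in the data, the adjusted threshold admitted larger p-values. Recovery in the data may therefore be lower. Simulated counts were drawn from the means and spread of the fit with the block and tested in the same model. The recovery and the false calls therefore say nothing about how the calls depend on the block. Alternatives were RLE factors, DESeq2 1.42.0, limma voom 3.58.1, no filter, a minimum mean count of 50, no block, all 16 libraries, each library left out in turn, and, chosen after the data were seen, additivity of linear CPM. Gene names and promoters came from RefSeq (GRCh38.p14), which differs from hg19, so no position was taken from the counts.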

Additional observations from a re-analysis of the deposited data

How the results depend on the processing

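All 16 genes kept the sign of their interaction under every alternative run on the log2 scale, and their number past the threshold moved with the fit. With the title start left out as replicate block, 0 genes passed for the interaction at 24 h, 9 for sorafenib in MMS cells, 37 for sorafenib alone, 3942 for MMS alone, 4678 for MMS in sorafenib cells and 0 for the interaction at 8 h. DESeq2 called 40 genes at 24 h, 34 at 8 h and 4 for the difference between times. With no filter on low counts the numbers were 149, 120 and 6, and 591 for sorafenib in MMS cells. The fit of all 16 libraries called 4 genes at 24 h, RLE factors 12, limma voom 20 and a mean count of at least 50 called 13. Of the 16 genes, RLE factors kept 12, DESeq2 16, voom 16, no filter 16, the higher minimum 13 and all 16 libraries 4. Leaving out one library gave 2 to 54 calls for the interaction at 24 h, 148 to 386 for sorafenib in MMS cells, 474 to 1423 for sorafenib alone, 5431 to 6720 for MMS alone and 5498 to 8064 for MMS in sorafenib cells. For the 8 h interaction the range was 0 to 794 and for the difference between times 0 to 61, both highest without the 8 h combination library of MDAMB231. In those fits the lone library of a group took its spread from the other groups. The cause of these moves was not tested. On the linear CPM scale IL8 reversed, with a mean departure of 60.3 CPM against -0.38 on the log2 scale. With 2 libraries per group, many departures of 1.5-fold and some larger ones may be missed at this depth and spread.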

Other observations

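Of the lists of mitosis, cholesterol synthesis, hypoxia and ribosome biogenesis genes, 0 members passed in either direction (edgeR, adjusted p of 0.05). The share over all genes tested was 0.116%. These lists were not chosen by a stated rule, and other lists also had mostly a single sign. Of 28 measured ER chaperone and unfolded protein response genes, 27 were positive and 1 negative. Translesion synthesis had 1 positive and 17 negative of 18, and YAP targets 4 positive and 15 negative of 19. At an unadjusted p of 0.05, beside 3.83% of all genes above the sum and 4.05% below it, 0 of 50 mitosis genes lay above and 6 below, 0 and 8 of 31 cholesterol and fatty acid genes, 12 and 1 of 35 hypoxia and glycolysis genes, and 9 and 0 of 30 ribosome biogenesis genes. Of 50 measured genes of mitosis and G2/M, 44 had a negative interaction, with a median of -0.11 against -0.0012 for all genes. Sorafenib alone raised 8 of the 50, beside 4.2% of all genes, and sorafenib added to MMS raised 0, beside 0.953%; the difference between these counts was not tested. MKI67, a marker of cycling cells, had 504 and 588.5 CPM in combination cells, 654 and 612 CPM in MMS cells, 935 and 876 CPM in sorafenib cells and 794 and 814 CPM in DMSO cells, an interaction of -0.39 ± 0.109 (edgeR, adjusted p = 0.279). Its levels were higher in sorafenib than in DMSO libraries and lower in both groups with MMS.

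Genes of cholesterol and fatty acid synthesis had a median of -0.17, with 26 negative of 31 measured. Sorafenib alone raised 9 of the 31, and sorafenib added to MMS raised 0, beside the same shares of all genes. HMGCS1, which makes the precursor of mevalonate, had 34.9 and 35.5 CPM in combination cells, 29.0 and 33.8 CPM in MMS cells, 79.9 and 58.0 CPM in sorafenib cells and 43.9 and 39.7 CPM in DMSO cells (-0.57 ± 0.169, adjusted p = 0.307). In the other direction, 30 of 35 measured genes of hypoxia and glycolysis were positive (median 0.135) and 27 of 30 genes of ribosome biogenesis (median 0.16). PFKFB3, a regulator of glycolysis, had the smallest p of the hypoxia list (0.44 ± 0.0973, adjusted p = 0.112). Members of a list share libraries and are not independent, and MKI67, HMGCS1 and PFKFB3 were picked after their values were seen. MKI67 and HMGCS1 stand at the negative end of the mitosis and cholesterol lists, whose lowest values were -0.39 and -0.57.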
